A study of Mus musculus with 6 samples.

Results

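Col13a1 alveolar fibroblasts of the mouse lung were selected on the RNA molecules of marker genes in single-cell libraries. A barcode was chosen by at least 1 molecule of the collagen gene *Col1a2* and detection of at least 4 of the 6 genes *Tcf21*, *Npnt*, *Mfap4*, *Cxcl14*, *Col13a1*, and *Itga8*. It could hold at most 2 of *Egfl7*, *Tie1*, *Cldn5*, *Cdh5*, and *Pecam1*, which mark endothelium, at most 1 of the myofibroblast genes *Aspn*, *Hhip*, and *Lgr6*, and at most 1 of the adventitial fibroblast genes *Pi16*, *Scara5*, *Clec3b*, and *Htra3*. Barcodes under 500 genes or over 10% mitochondrial molecules had been left out. In all, 608 of 38208 such barcodes (1.59%) met the rule, 482 in WT and 126 in TNF-Tg libraries.

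The study asked how chronic TNF excess changes the cells of the lung in a mouse model of pulmonary hypertension. There were 6 libraries, 1 for each genotype and each age of 8, 14, or 20 weeks. TNF-Tg mice carry a TNF transgene, and the WT mice were littermates that do not. All were female, the lungs of a genotype and age were pooled, and live cells without the leukocyte marker CD45 and the epithelial marker CD326 were sorted before capture. The promoter of the transgene is not given in the sources used here, mice could not be told apart within a pool, and the 3 ages of a genotype therefore served as its replicates, so that p-values measure the spread between these pools. Change with age could not be told apart from a difference between pools.

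Alveolar fibroblasts lie in the walls of the air sacs beside epithelium and capillaries. They are known for the transcription factor Tcf21, for stores of lipid and retinoid, and for ligands of the Wnt, FGF, VEGF, and BMP families that act on the neighboring epithelium and endothelium. TNF acts on such cells through its receptors and NF-κB, which induces chemokines, complement, and antigen-presentation genes as well as its own inhibitors.

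Levels are in CPM, the molecules (UMIs) of a gene per 1000000 UMIs of these cells in a library, in the order of 8, 14, and 20 weeks. The summed libraries held 475385 to 1690197 UMIs. The cells of TNF-Tg libraries were deeper, with a median of 12294, 14588, and 12949 UMIs at 8, 14, and 20 weeks against 6721, 6673, and 7737 in WT. No barcode among these cells was shared between libraries.

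The name was checked against genes that the rule did not use, and against *Aspn*, *Hhip*, and *Lgr6*, which the rule limits. *Inmt*, an indolethylamine methyltransferase gene typical of alveolar fibroblasts (chr6:55170626-55175043, minus strand, GRCm38), was read at 6725, 7442, and 6196 CPM in the WT pools and at 0.757 to 20.9 CPM in endothelial barcodes of the same 6 libraries. After each cell was thinned to 2000 UMIs, *Inmt* was present in 97.0%, 100%, and 96.5% of the WT cells. It was present in 59.5%, 41.5%, and 51.1% of the TNF-Tg cells and in 0.210% to 4.50% of endothelial barcodes. Smooth muscle genes summed to 645, 301, and 707 CPM in the WT pools and 5749, 3803, and 3207 CPM in TNF-Tg, and pericyte genes to 373, 90.2, and 412 and 3409.9, 518, and 467 CPM. The share of cells in which none of *Myh11*, *Cnn1*, *Higd1b*, *Cox4i2*, *Aspn*, *Hhip*, and *Lgr6* was detected was 84.7%, 77.4%, and 86.4% in WT and 36.8%, 31.7%, and 34.0% in TNF-Tg. These shares were counted in unthinned cells, of which those of TNF-Tg were deeper, and the part of depth in them was not tested. The name therefore holds only in part for the TNF-Tg cells, and each gene group was also counted in the 402 WT and 43 TNF-Tg cells that lacked those genes, a subset defined once the values had been seen. These cells are called mural-gene-negative here, and mural refers to the smooth muscle cells and pericytes of the vessel wall. The label covers only the genes listed, some of which are myofibroblast genes, and does not mean that all mural genes were absent. *Acta2* and *Pdgfrb* were still called higher in TNF-Tg among these cells, as given below. The sums of these cells held 121189 to 1394492 UMIs.

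Alveolar fibroblasts were a smaller share of the TNF-Tg libraries. They made up 3.87% of the barcodes in the WT library of 8 weeks (249 of 6430, exact Clopper-Pearson 95% interval 3.41% to 4.37%). The WT shares were 1.90% at 14 weeks (115 of 6051, 1.57% to 2.28%) and 1.70% at 20 weeks (118 of 6961, 1.41% to 2.03%). In TNF-Tg they made up 0.575% at 8 weeks (38 of 6604, 0.408% to 0.789%), 0.705% at 14 weeks (41 of 5817, 0.506% to 0.955%), and 0.741% at 20 weeks (47 of 6345, 0.545% to 0.984%). Every WT share lay above every TNF-Tg share, and the WT library of 8 weeks stood highest. The intervals cover counting error only. The WT mean of 2.49% ± 1.20 compared with a TNF-Tg mean of 0.674% ± 0.0870 (SD, n = 3 each). The difference was -1.82 percentage points (p = 0.1 by a 2-sided exact permutation test, which cannot give a smaller p for 3 libraries against 3). Without the WT library of 8 weeks, the difference was -1.12 points.

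Among barcodes with *Col1a2*, the share of alveolar fibroblasts was 29.3%, 21.1%, and 18.5% in WT and 7.55%, 4.55%, and 3.59% in TNF-Tg at 8, 14, and 20 weeks. The means were 22.9% ± 5.61 and 5.23% ± 2.07 (SD, n = 3), a 4.39-fold difference with no overlap of libraries (p = 0.1, same exact test). Both shares are bound to the markers of the rule, and these markers differed between genotypes. Levels of the markers in the chosen cells are given as a description, without a test. *Tcf21*, a transcription factor of lung mesenchyme, stood at 829, 959, and 1183 CPM in the WT pools and 297, 136, and 236 CPM in the TNF-Tg pools. *Npnt*, which encodes the matrix protein nephronectin, stood at 2717, 2130.4, and 2176 CPM and 1026, 509, and 373 CPM, and *Itga8*, an integrin subunit that binds nephronectin, at 1094, 935, and 1128 CPM and 559.5, 458, and 377 CPM. These 3 genes, the chemokine gene *Cxcl14* (1073, 744, and 562 CPM against 433, 209, and 283 CPM), and the transmembrane collagen gene *Col13a1* (498, 391, and 401 CPM against 162, 123, and 128 CPM) were lower in every TNF-Tg library than in any WT library. Only the microfibril gene *Mfap4* overlapped, with 1598 to 3739.8 CPM for WT and 2085 to 2577 CPM in TNF-Tg.

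All 6 markers were present in 71.5%, 56.5%, and 65.3% of the WT cells and in 39.5%, 39.0%, and 38.3% of the TNF-Tg cells, although the latter were deeper. When the cells were thinned to 2000 UMIs, 91.4%, 83.8%, and 80.0% of the WT cells but 45.9%, 19.5%, and 19.1% of the TNF-Tg cells still showed at least 4 markers. Just inside the limit, with 4 markers, were 22, 14, and 11 barcodes in WT and 14, 11, and 15 in TNF-Tg. Just outside it, with 3 markers, were 51, 28, and 46 in WT and 56, 44, and 40 in TNF-Tg. The WT cells just inside held *Inmt* at 3632, 5703, and 3078 CPM and those just outside at 409, 1389, and 131 CPM. In TNF-Tg, *Inmt* was at 49.7, 246, and 193 CPM just inside and 52.3, 129, and 13.7 CPM just outside. *Acta2*, the smooth muscle actin gene, was at 4347, 4171, and 3265 CPM just inside and at 11292, 8867, and 6723 CPM just outside in TNF-Tg. In WT, *Acta2* was at 1402, 12.9, and 1597 CPM just inside and at 6023, 2029, and 5964 CPM just outside.

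**Figure D1:**
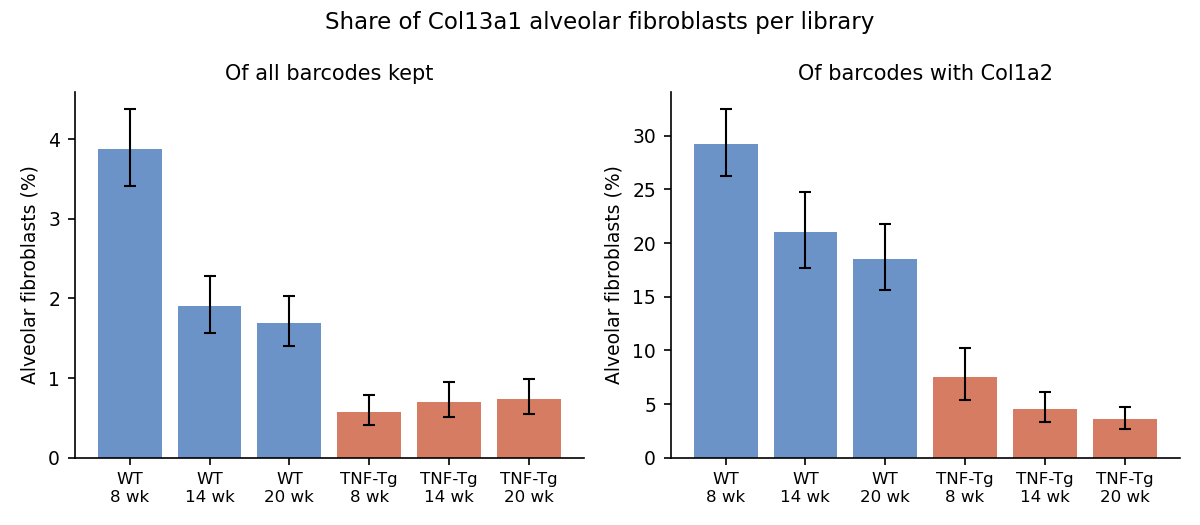
Share of Col13a1 alveolar fibroblasts by library, as a percentage of all barcodes kept and of barcodes with *Col1a2*, with 1 bar per library, labeled by genotype and age in weeks, and exact 95% intervals. All 3 WT libraries lie above all 3 TNF-Tg libraries in both panels, and the WT library of 8 weeks is the highest.

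Gene expression of these cells was compared between the 3 TNF-Tg and 3 WT sums with the quasi-likelihood test of edgeR, and a gene was called at a Benjamini-Hochberg adjusted p (FDR) under 0.05. Of 7846 genes tested apart from the rule genes, 584 (7.44%) were called higher and 531 (6.77%) lower in TNF-Tg. The median log2 fold change over all of them was 0.01. In mural-gene-negative cells, 316 of 5546 genes (5.70%) were called higher and 236 (4.26%) lower. Of the 1115 genes called in all cells, 863 could be tested there, 858 kept their sign, and 459 were called again in the same direction. The mural-gene-negative cells are part of the cells first tested, so kept signs and repeated calls are not independent evidence. Full separation of the 3 TNF-Tg from the 3 WT values was found for 1095 of the 1115 called genes. Such separation was not counted among the genes that were not called. It is stated for single genes below as a description and adds little to a call. Gene groups below are lists of known genes, and 175 of their genes were called in all cells. The count of each list is to be read against the shares of all genes, 7.44% called higher and 6.77% called lower. Of these, 125 were called whichever library was left out, and 50 were not called without 1 library or more. A gene of the latter kind is given with its highest FDR over the fits that leave out 1 library. Mouse *Tnf* itself was at 0 UMIs in these cells in all 6 libraries. The study's supplement writes the mice as Tg(hTNF), a human transgene. The counts list mouse genes only, so expression of the transgene could not be read.

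Genes typical of alveolar fibroblasts were lower as a group in TNF-Tg. Of 20 such genes tested outside the rule, 16 fell and none rose, with a median log2 fold change of -0.90 against 0.01 over all genes. The study names *Inmt*, *Pcolce2*, and *Mettl7a1* of this list as most lowered in these libraries, so their fall is not independent evidence. Their levels summed to 23797, 23905, and 23253 CPM in the WT pools and 11054, 9084, and 8937 CPM in TNF-Tg. *Inmt* (1864, 733, and 794 CPM in TNF-Tg against the WT values above) fell 6.01-fold (log2 fold change -2.60 ± 0.30 SE, FDR = 1.59e-04). *Pcolce2*, an enhancer of procollagen processing, stood at 2225, 2144, and 2418 CPM in the WT pools and 454, 386, and 253 CPM in the TNF-Tg pools (log2 fold change -2.65 ± 0.20 SE, FDR = 1.28e-05). The amino acid transporter gene *Slc7a10* went from 239, 173, and 266 CPM to 18.9, 1.64, and 6.25 CPM (log2 fold change -4.78 ± 0.39 SE, FDR = 1.99e-05), and the fibroblast growth factor receptor gene *Fgfr4* from 95.3, 114, and 115 CPM to 23.1, 6.54, and 4.69 CPM (log2 fold change -3.34 ± 0.36 SE, FDR = 1.02e-04). For each of these 4 genes the lowest WT library was above the highest TNF-Tg library, and the TNF-Tg library of 8 weeks was the highest of the TNF-Tg libraries. *Limch1*, *Wnt2*, *Ces1d*, *Enpep*, *Mettl7a1*, *Nebl*, *Slc38a5*, and *Macf1* also fell, as did *Vegfd*, *Spon1*, *Gyg*, and *Slit3*, whose highest FDR with 1 library left out was 0.0712, 0.0831, 0.116, and 0.125. In mural-gene-negative cells, 7 of 20 were called lower, among them *Inmt* (log2 fold change -2.24, FDR = 0.0193), *Pcolce2* (-2.39, FDR = 2.83e-04), *Slc7a10* (-4.26, FDR = 2.51e-04), and *Fgfr4* (-2.71, FDR = 5.74e-04).

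Lipid genes moved in both directions. Of 14 lipofibroblast genes tested, 4 rose (*Lpl*, *Fabp4*, *Cebpa*, and *Abca1*) and 5 fell (*Plin2*, *Lipa*, *G0s2*, and *Apoe* among them), with a median log2 fold change of -0.19. *G0s2*, whose product restrains lipolysis, was at 1540.1, 1127, and 1174 CPM in the WT pools and 438, 273, and 216 CPM in the TNF-Tg pools (log2 fold change -2.08 ± 0.24 SE, FDR = 1.56e-04). *Lpl*, the lipoprotein lipase gene, was at 91.7, 81.3, and 20.7 CPM in the WT pools and 284, 294, and 355 CPM in the TNF-Tg pools (log2 fold change 2.22 ± 0.36 SE, FDR = 0.00146), against 36.3 to 312 CPM in endothelial barcodes. The cholesterol exporter gene *Abca1* rose from 57.6 ± 17.3 to 170.4 ± 31.7 CPM (mean ± SD, n = 3; log2 fold change 1.58 ± 0.22, FDR = 4.59e-04). Libraries of the genotypes did not overlap for these 3 genes. The highest FDR with 1 library left out was 0.12 for *Cebpa*, 0.103 for *Plin2*, and 0.137 for *Apoe*, all without the TNF-Tg library of 14 weeks, and 3 genes of the list were called lower without that library or without the WT library of 8 or of 14 weeks. Mural-gene-negative cells had 2 called higher and 3 lower of 12. Of 8 retinoid genes tested, 1 rose (*Cyp26b1*, which degrades retinoic acid) and 2 fell, against 1 higher and 1 lower of 7 in mural-gene-negative cells. *Aldh1a1*, which makes retinoic acid, stood at 878, 1248, and 1138 CPM in the WT pools and 448, 473, and 402 CPM in the TNF-Tg pools (log2 fold change -1.31 ± 0.16 SE, FDR = 2.08e-04). *Adh1*, which oxidizes retinol, stood at 197, 225, and 259 CPM and 139, 129, and 73.4 CPM (log2 fold change -1.01 ± 0.21, FDR = 0.00705), and in mural-gene-negative cells its log2 fold change was -0.42 (FDR = 0.51).

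**Figure D2:**
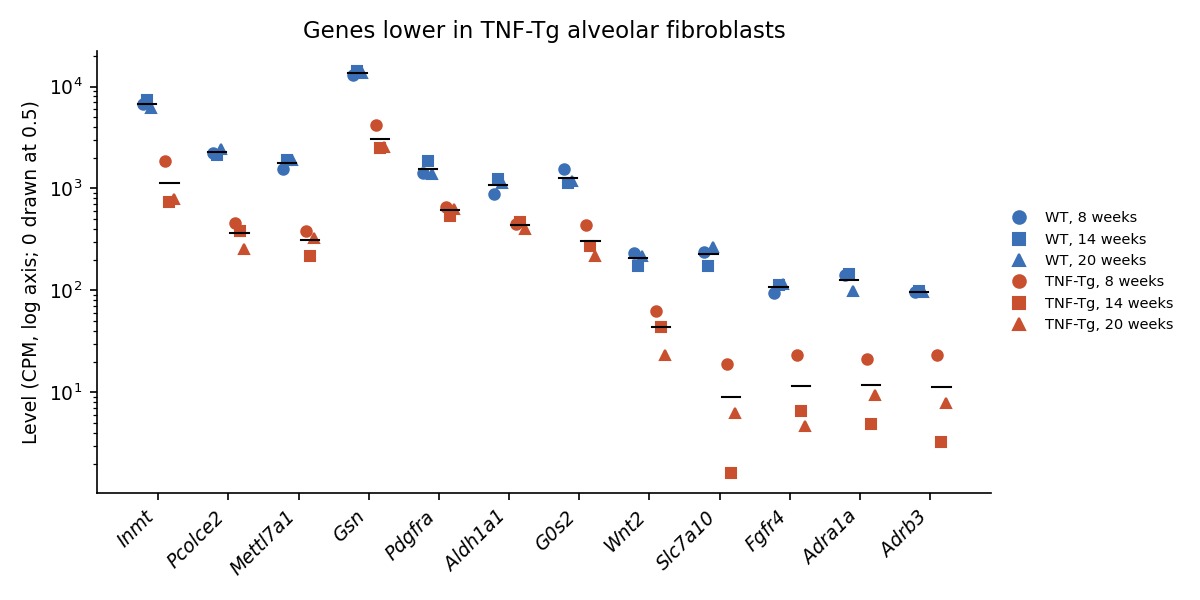
Level of genes that fell in alveolar fibroblasts of TNF-Tg lungs, in CPM on a log scale, with 1 point per library and ages marked. The WT libraries lie above the TNF-Tg libraries for every gene shown.

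The 10 genes that fell most, outside the rule and with at least 50 CPM, were *Epha1*, *Slc7a10*, *Gm14964*, *Faim2*, *1810010H24Rik*, *Adra1a*, *Fgfr4*, *Fabp3*, *Adrb3*, and *Mgll*. *Epha1*, an ephrin receptor gene, was at 52.7, 44.5, and 71.9 CPM in WT and had 2 UMIs in all TNF-Tg libraries together (2.10, 0, and 1.56 CPM, FDR = 4.67e-05). The α1 adrenergic receptor gene *Adra1a* was at 141, 145, and 98.0 CPM and 21.0, 4.91, and 9.38 CPM (log2 fold change -3.53 ± 0.35 SE, FDR = 5.83e-05), and the β3 receptor gene *Adrb3* at 96.4, 99.1, and 95.8 CPM and 23.1, 3.27, and 7.81 CPM (log2 fold change -3.20 ± 0.37 SE, FDR = 1.55e-04). Both catecholamine receptor genes were thus lower in every TNF-Tg library than in any WT library. *Faim2*, an inhibitor of Fas-mediated death, fell from 115 ± 27.4 to 7.93 ± 4.12 CPM (log2 fold change -3.88 ± 0.34, FDR = 2.83e-05), and the fatty acid-binding protein gene *Fabp3* from 65.7 ± 31.4 to 7.04 ± 1.88 CPM (-3.26 ± 0.51, FDR = 0.001). *Gm14964* was at 283, 259, and 211 CPM in the WT pools and 14.7, 4.91, and 9.38 CPM in the TNF-Tg pools, and *1810010H24Rik* at 302, 292, and 269 and 42.1, 3.27, and 28.1 CPM (FDR = 3.24e-06 and FDR = 1.07e-04). The monoglyceride lipase gene *Mgll*, with 61.5, 38.1, and 69.7 CPM in the WT pools and 14.7, 0, and 7.81 CPM in the TNF-Tg pools (FDR = 0.00196), lay within or below its endothelial range of 44.0 to 216 CPM. All 10 genes were also called lower in mural-gene-negative cells, where *Epha1* had 0 UMIs in every TNF-Tg library and *Fabp3* had a log2 fold change of -2.22 (FDR = 0.0385).

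Genes of NF-κB and its inhibitors rose together. Of 15 tested, 11 rose and none fell, with a median log2 fold change of 1.75, and 10 of 12 were called higher in mural-gene-negative cells. *Tnfaip3*, which encodes the NF-κB inhibitor A20, was read at 2.37, 2.54, and 3.27 CPM in the WT pools and 69.4, 123, and 144 CPM in the TNF-Tg pools (log2 fold change 5.33 ± 0.38 SE, FDR = 1.09e-05). *Nfkbie*, an IκB gene, was read at 2.37, 1.27, and 5.45 and 48.4, 88.3, and 81.3 CPM (log2 fold change 4.56 ± 0.40 SE, FDR = 3.02e-05), and the ubiquitin ligase gene *Birc3* at 14.2, 10.2, and 18.5 and 54.7, 116, and 82.8 CPM (log2 fold change 2.55 ± 0.31 SE, FDR = 1.99e-04). *Tnip1*, which encodes a partner of A20, rose from 22.4 ± 11.3 to 129 ± 15.9 CPM (log2 fold change 2.53 ± 0.27, FDR = 1.02e-04). Every TNF-Tg library was above every WT library for these 4 genes. The subunit genes *Nfkb1*, *Nfkb2*, and *Relb* were also among those that rose, with *Nfkbia*, *Bcl3*, *Birc2*, and *Rela* (FDR = 0.0454, highest 0.154 without the WT library of 20 weeks). Without the TNF-Tg library of 8 weeks, 1 gene of the list was called lower. Of 12 genes of TNF receptors and death signaling, 2 rose and 1 fell (*Tradd*, an adaptor of the TNF receptor, with an FDR of 0.146 without the WT library of 8 weeks), and mural-gene-negative cells had 2 higher and 0 lower of 8. The 1 that fell is near the share of all genes called lower (6.77%). *Fas*, a death receptor gene, stood at 58.6, 40.7, and 58.8 CPM in the WT pools and 105, 147, and 136 CPM in the TNF-Tg pools (log2 fold change 1.27 ± 0.20 SE, FDR = 9.65e-04), and *Cflar*, an inhibitor of caspase-8, at 78.7, 78.8, and 73.0 and 122, 126, and 128 CPM (log2 fold change 0.69 ± 0.15 SE, FDR = 0.00723).

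Of 11 chemokine and cytokine genes tested, 7 rose and none fell. Their median log2 fold change was 2.73, and 7 of 10 were called higher in mural-gene-negative cells. *Ccl2*, which attracts monocytes (chr11:82035571-82037453, plus strand), had 2 UMIs in all WT libraries together (0, 1.27, and 1.09 CPM) and stood at 410.2, 688, and 495 CPM in TNF-Tg (FDR = 6.51e-07). Its neighbor *Ccl7* (chr11:82045712-82047525, plus strand) had 0 UMIs in every WT library and 25.2, 131, and 223 CPM in TNF-Tg, and its UMIs summed over the TNF-Tg libraries were, per UMI read, at least 154-fold higher than 3 UMIs over all WT libraries would be (FDR = 7.64e-04). The lymphocyte chemokine gene *Ccl19* was at 17.7, 8.89, and 51.2 CPM in the WT pools and 309, 406, and 364 CPM in the TNF-Tg pools (log2 fold change 3.81 ± 0.38 SE, FDR = 7.08e-05). *Cxcl12* rose from 33.7, 48.3, and 42.5 CPM to 212, 616, and 1003 CPM (log2 fold change 3.90 ± 0.46 SE, FDR = 1.81e-04), against 510.1 to 1538 CPM in endothelial barcodes. All these chemokines were lowest, within TNF-Tg, in the library of 8 weeks. *Cxcl16*, *Il34*, and *Csf1* completed the members that rose, and without the TNF-Tg library of 8 weeks 1 gene of the list was called lower.

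Acute-phase genes were among the most abundant of the genes that rose. Of 6 tested, 3 rose and none fell (median log2 fold change 1.87). The study names *Saa3* and *Hp* among the most raised genes of these libraries, so their rise is not independent evidence. *Saa3*, a serum amyloid A gene (chr7:46711998-46715700, minus strand), was read at 38.5, 0, and 99.1 CPM in the WT pools and 873, 4738, and 6019.6 CPM in the TNF-Tg pools, a 84.5-fold difference of the means (log2 fold change 6.39 ± 0.93 SE, FDR = 6.73e-04). *Hp*, the haptoglobin gene (chr8:109575128-109579172, minus strand), was read at 21.9, 12.7, and 63.2 CPM and 682, 3515, and 3482 CPM (78.5-fold; log2 fold change 6.31 ± 0.68 SE, FDR = 1.05e-04). The ceruloplasmin gene *Cp* was read at 576, 476, and 587 and 915, 1630.2, and 1542 CPM (log2 fold change 1.31 ± 0.21 SE, FDR = 0.00119). The libraries of TNF-Tg were above all WT libraries for each, and the TNF-Tg library of 8 weeks was the lowest of its genotype. *Saa3* was at 0.202 to 27.8 CPM in endothelial barcodes. In cells thinned to 2000 UMIs, *Saa3* was present in 0.858%, 0% (0 of 111), and 0.870% of WT cells and 35.1%, 43.9%, and 61.7% of TNF-Tg cells, and in at most 2.78% of endothelial barcodes. *Hp* was present in 3.43%, 2.70%, and 0.870% of WT cells and 27.0%, 46.3%, and 66.0% of TNF-Tg cells. Both were therefore read in many but not all of the TNF-Tg cells. In mural-gene-negative cells the log2 fold changes were 6.44 for *Saa3* (FDR = 3.07e-04) and 6.96 for *Hp* (FDR = 1.49e-05).

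The 10 genes that rose most were *Ccl7*, *Ccl2*, *Cyp1b1*, *Sncg*, *Saa3*, *Hp*, *Slc15a3*, *Ecrg4*, *Cnn1*, and *S100a4*. *Slc15a3*, a transporter gene of lysosomes, stood at 1.77, 0, and 1.09 CPM in the WT pools and 46.3, 99.7, and 89.1 CPM in the TNF-Tg pools (log2 fold change 5.91 ± 0.50 SE, FDR = 2.54e-05). *S100a4*, a calcium-binding protein gene, stood at 7.10, 5.08, and 2.18 and 177, 147, and 442 CPM (log2 fold change 5.57 ± 0.52 SE, FDR = 4.67e-05), and *Sncg*, the γ-synuclein gene, at 1.77, 1.27, and 0 and 18.9, 118, and 198 CPM (log2 fold change 6.44 ± 0.89 SE, FDR = 4.81e-04). *Cyp1b1*, a cytochrome P450 gene, and *Ecrg4* each had 3 UMIs over all WT libraries and stood at 25.2, 91.6, and 169 and 29.4, 81.8, and 50.01 CPM in TNF-Tg (FDR = 2.22e-04 and FDR = 8.00e-05). *Cnn1*, the smooth muscle calponin gene, stood at 0, 0, and 4.36 and 84.1, 60.5, and 67.2 CPM (FDR = 6.27e-05). All TNF-Tg libraries were above all WT libraries for each of these genes. *Sncg*, *Ecrg4*, *Cnn1*, and *S100a4* could not be tested in mural-gene-negative cells, where *Cnn1* was absent by construction.

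Promoter windows of 250 bases before to 50 bases after the start site, from RefSeq on GRCm38.p6, were matched for 6 of these 10 genes (*Cyp1b1*, *Sncg*, *Saa3*, *Ecrg4*, *Cnn1*, and *S100a4*). On either strand, the NF-κB motif GGANTTTCC was present in 0 of the 6 windows and in 1.25% of 32851 windows of all genes. The C/EBP motif TTGCNNAA was present in 1 of the 6 and in 10.8% of all windows. That window was of *Saa3* (chr7:46715627-46715926, minus strand), the most abundant gene of those that rose most, and its sequence is given with the match in capitals, which starts 99 bases before the start site.

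*Saa3* promoter: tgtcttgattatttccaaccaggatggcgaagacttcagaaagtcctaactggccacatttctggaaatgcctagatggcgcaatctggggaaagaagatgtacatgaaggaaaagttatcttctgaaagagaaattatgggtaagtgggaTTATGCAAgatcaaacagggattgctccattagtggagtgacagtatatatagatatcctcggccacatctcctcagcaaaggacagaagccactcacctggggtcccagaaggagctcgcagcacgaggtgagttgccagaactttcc

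The match is a description of these letters and shows no binding.

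**Figure D3:**
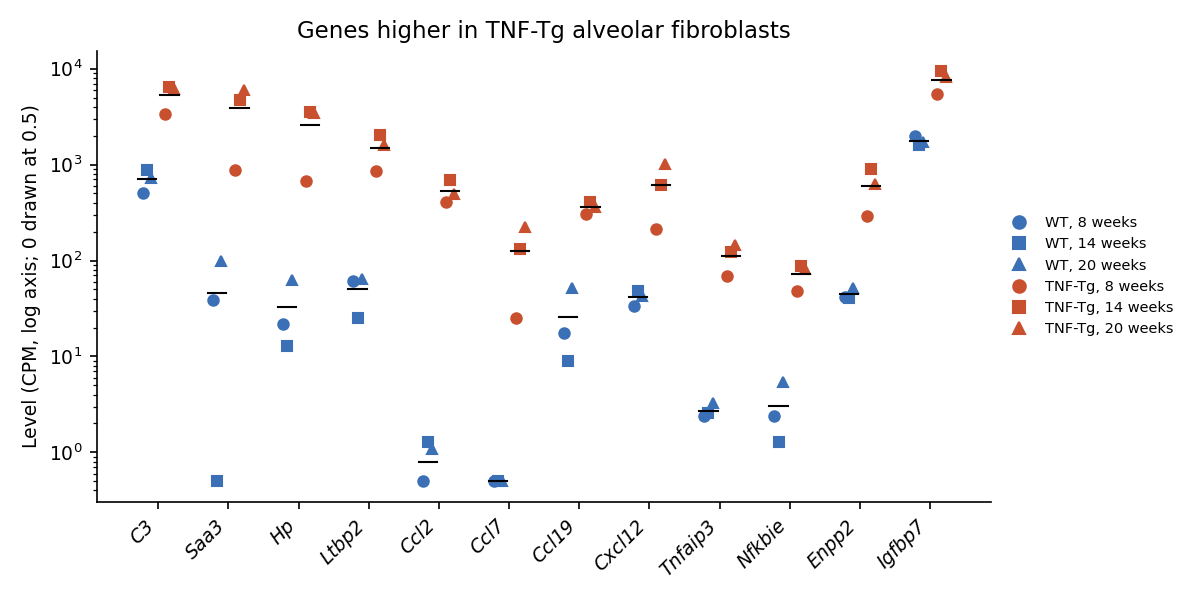
Level of genes that rose in alveolar fibroblasts of TNF-Tg lungs, in CPM on a log scale, with 1 point per library and ages marked. The TNF-Tg libraries lie above the WT libraries for every gene shown.

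Complement genes were read at higher levels in TNF-Tg. Of 10 tested, 8 rose and 1 fell, with a median log2 fold change of 1.46, and 9 of 10 were called higher in mural-gene-negative cells. *C3*, the central component, stood at 508, 889, and 719 CPM in the WT pools and 3338, 6432, and 6082 CPM in the TNF-Tg pools, a 7.49-fold difference of means (log2 fold change 2.90 ± 0.27 SE, FDR = 4.22e-05). *C4b* stood at 127, 142, and 142 and 379, 921, and 697 CPM (log2 fold change 2.28 ± 0.27 SE, FDR = 1.81e-04). *C2* and the alternative pathway gene *Cfb* rose from 17.1 ± 2.20 to 112 ± 30.6 CPM and from 40.6 ± 24.9 to 177 ± 53.9 CPM (log2 fold change 2.67 ± 0.25, FDR = 4.96e-05 and 2.19 ± 0.35, FDR = 0.00129). The lowest TNF-Tg library was above the highest WT library for all 4 genes.

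Of 12 antigen-presentation genes, 8 rose and none fell (median log2 fold change 1.42), and 11 of 11 were called higher in mural-gene-negative cells. *B2m*, the light chain of MHC class I, was at 756, 927, and 836 CPM in the WT pools and 1782, 3257, and 2999 CPM in the TNF-Tg pools (log2 fold change 1.67 ± 0.21 SE, FDR = 2.65e-04). The class I heavy chain genes *H2-K1* and *H2-D1* were at 347, 396, and 338 CPM and 464, 595, and 533 CPM in WT and at 633, 1489.6, and 1547 CPM and 841, 1947, and 1949 CPM in TNF-Tg (FDR = 0.00119 and FDR = 0.00211). The libraries did not overlap, but endothelial barcodes had more of each (3128 to 3759 CPM of *B2m*). Class I genes are near copies of one another, and *H2-Q4* (21.3, 21.6, and 27.2 and 84.1, 239, and 191 CPM, FDR = 1.55e-04) is uncertain where reads are shared. The immunoproteasome genes *Psmb8* and *Psmb10* rose as well, as did *Psmb9* and the peptide-loading gene *Tapbp*, whose FDR was 0.0579 and 0.223 without the WT library of 8 weeks. Interferon response genes did not move as a group. Of 20 tested, 2 rose and 3 fell (median log2 fold change 0.07), where 7.44% of all genes were called higher and 6.77% lower. In mural-gene-negative cells 2 were called higher and 3 lower of 17, where 5.70% of all genes were called higher and 4.26% lower. *Ifitm1* rose from 270.4, 142, and 308 to 947, 906, and 1500.2 CPM (log2 fold change 2.21 ± 0.28 SE, FDR = 2.90e-04), *Iigp1* from 100.3 ± 14.5 to 205 ± 32.6 CPM (FDR = 0.00183), and those that fell were *Ifit2*, *Ifit3*, and *Ifi27l2a* (highest FDR = 0.0802, without the WT library of 20 weeks).

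Of 11 genes of adhesion and innate sensing, 8 rose and 1 fell. *Sod2*, the mitochondrial superoxide dismutase gene, was at 108, 72.4, and 81.7 CPM in the WT pools and 217, 301, and 495 CPM in the TNF-Tg pools (log2 fold change 1.93 ± 0.28 SE, FDR = 6.60e-04), and the leukocyte adhesion gene *Icam1* at 91.1, 77.5, and 108 and 133, 249, and 258 CPM (log2 fold change 1.21 ± 0.23 SE, FDR = 0.0045). *Cd14*, a co-receptor for bacterial lipopolysaccharide, was called higher (6.51, 3.81, and 15.2 and 14.7, 73.6, and 142 CPM, log2 fold change 3.23 ± 0.65, FDR = 0.00533), with overlap between the TNF-Tg library of 8 weeks and the WT library of 20 weeks. *Cd40*, a receptor of the TNF superfamily, went the other way (101, 73.7, and 81.7 CPM in the WT pools and 31.6, 22.9, and 12.5 CPM in the TNF-Tg pools, log2 fold change -2.01 ± 0.28, FDR = 5.02e-04). In mural-gene-negative cells, 5 of 8 were called higher and none lower, and *Cd40* had a log2 fold change of -1.70 (FDR = 0.0604). The count of this list rested on single libraries, since 4 genes were called higher without the WT library of 8 or of 20 weeks and 5 without the TNF-Tg library of 14 weeks, and *Vcam1*, *Il1r1*, *Il6st*, and *Osmr* were those that lost their call (highest FDR = 0.12, 0.151, 0.0687, and 0.133).

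Ligands that act on the epithelium changed in both directions. Of 8 tested, 3 rose (*Wnt5a*, *Igf1*, and *Pdgfa*) and 3 fell (*Fgf7*, *Wnt2*, and *Hgf*), against 3 higher and 1 lower of 8 in mural-gene-negative cells. *Wnt2* stood at 235, 175, and 219 CPM in the WT pools and 63.1, 44.1, and 23.4 CPM in the TNF-Tg pools (log2 fold change -2.32 ± 0.26 SE, FDR = 1.30e-04). *Wnt5a*, a Wnt ligand that mostly signals without β-catenin, stood at 36.7, 38.1, and 21.8 and 114, 73.6, and 68.8 CPM (log2 fold change 1.35 ± 0.26 SE, FDR = 0.00456). The 2 Wnt genes thus differed in direction, and each kept its call in mural-gene-negative cells (log2 fold change -1.85, FDR = 0.00583, and 1.73, FDR = 0.011). When unthinned cells needed only 3 markers, *Wnt5a* had a log2 fold change of 0.05 (FDR = 0.901) and *Igf1* one of 1.13 (FDR = 0.0661). *Pdgfa* rose from 35.5, 31.8, and 28.3 to 145, 101, and 53.1 CPM (log2 fold change 1.58 ± 0.31 SE, FDR = 0.0044), and *Igf1* from 66.9, 36.8, and 79.5 to 151, 361, and 164 CPM (log2 fold change 1.86 ± 0.34 SE, FDR = 0.0028). The highest FDR with 1 library left out was 0.0584 for *Fgf7* and 0.192 for *Hgf*, so that *Wnt2* alone of this list was called lower without the WT library of 14 weeks or the TNF-Tg library of 14 or of 20 weeks.

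Of 13 ligands that act on vessels, 6 rose and 3 fell, with a median log2 fold change of 0.41. Those that fell were *Vegfa*, *Vegfd*, and *Angpt1*, the genes of 2 VEGF family ligands and of angiopoietin 1, which stabilizes vessels. Those that rose were *Vegfc*, *Cxcl12*, *Tgfb2*, *Mdk*, and the semaphorin genes *Sema3c* and *Sema3d*. *Mdk*, which encodes the growth factor midkine, stood at 54.4, 53.4, and 33.8 CPM in the WT pools and 233, 268, and 329.7 CPM in the TNF-Tg pools (log2 fold change 2.53 ± 0.21 SE, FDR = 2.54e-05). *Sema3d* stood at 4.14, 14.0, and 3.27 and 33.7, 78.5, and 81.3 CPM (log2 fold change 3.34 ± 0.47 SE, FDR = 5.42e-04), and *Sema3c* at 17.2, 16.5, and 5.45 and 44.2, 83.4, and 68.8 CPM (log2 fold change 2.27 ± 0.36 SE, FDR = 0.0011), far below its endothelial level of 614 to 1588 CPM. The highest FDR with 1 library left out was 0.0712 for *Vegfd* and 0.137 for *Tgfb2*. The genotypes did not overlap for *Mdk* and both semaphorin genes, and mural-gene-negative cells had 5 called higher and 2 lower of 13.

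The BMP axis, which the study follows in pulmonary hypertension, was described from ligands to targets. Of 6 ligand genes tested, *Bmp2* and *Gdf10* rose and *Bmp4* and *Bmp5* fell, with a highest FDR over the fits without 1 library of 0.151 for *Gdf10* (WT, 8 weeks) and 0.113 for *Bmp5* (WT, 20 weeks). In mural-gene-negative cells none of the 3 ligand genes tested was called, and *Bmp5* had a log2 fold change of -0.12 (FDR = 0.827). *Bmp4* was at 272, 279, and 305 CPM in the WT pools and 154, 105, and 78.1 CPM in the TNF-Tg pools (log2 fold change -1.38 ± 0.21 SE, FDR = 8.01e-04), and its log2 fold change was -0.84 (FDR = 0.0638) in mural-gene-negative cells. *Bmp2* was at 5.32, 3.81, and 5.45 CPM in the WT pools and 25.2, 21.3, and 15.6 CPM in the TNF-Tg pools (log2 fold change 1.99 ± 0.37 SE, FDR = 0.00331), a level that was under 50 CPM throughout. Both ligands had no overlap between genotypes. Of 8 receptor genes, *Bmpr1a* rose, and *Acvr2a* and *Acvrl1* fell (*Acvrl1* with an FDR of 0.0657 without the WT library of 20 weeks). The type I receptor gene *Bmpr1a* was at 109, 96.5, and 74.1 CPM in the WT pools and 147, 198, and 167 CPM in the TNF-Tg pools (log2 fold change 0.85 ± 0.19 SE, FDR = 0.009), and its FDR was 0.052 without the TNF-Tg library of 14 weeks. *Bmpr2*, the type II receptor gene, was at 169, 205, and 159 and 177, 167, and 203 CPM, which overlapped (log2 fold change 0.03 ± 0.16 SE, FDR = 0.933). The activin receptor gene *Acvr2a* was at 63.9, 68.6, and 85.0 and 18.9, 18.0, and 4.69 CPM (log2 fold change -2.42 ± 0.34 SE, FDR = 4.81e-04). Of 8 antagonist genes, *Fstl1* rose from 262, 189, and 231 to 738, 765, and 586 CPM (log2 fold change 1.60 ± 0.17 SE, FDR = 9.92e-05) and *Bmper* fell (FDR = 0.0618 without the TNF-Tg library of 14 weeks). Of 11 target and SMAD genes, 3 rose and none fell. They were *Id1*, *Id2*, and *Id3*, inhibitors of differentiation and targets of BMP signals, and *Id1* had an FDR of 0.0796 without the WT library of 20 weeks. *Id2* was at 16.6, 30.5, and 15.2 CPM in the WT pools and 204, 121, and 136 CPM in the TNF-Tg pools (log2 fold change 2.91 ± 0.28 SE, FDR = 5.16e-05), and *Id3* at 435, 434, and 389.9 and 1174, 705, and 991 CPM (log2 fold change 1.17 ± 0.18 SE, FDR = 0.00108). The calls among mural-gene-negative cells were 1 higher and 1 lower of 7 for receptors, 1 higher and 0 lower of 7 for antagonists, and 2 higher and 0 lower of 9 for targets. The *Id2* and *Id3* calls were also made in mural-gene-negative cells (FDR = 5.83e-05 and FDR = 7.96e-04).

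Of 18 genes of the TGF-β pathway, 8 rose and 2 fell (*Tgfbr3* and *Ltbp4*), with a median log2 fold change of 0.47, and 4 were called higher and 2 lower of 13 in mural-gene-negative cells. All 3 ligand genes were among those that rose, but *Tgfb1* and *Tgfb2* had an FDR of 0.0606 and 0.137 without the TNF-Tg library of 20 weeks and the WT library of 14 weeks, and without the latter 5 genes of the list were called higher. *Tgfb3* stood at 25.4, 20.3, and 43.6 CPM in the WT pools and 71.5, 165, and 90.6 CPM in the TNF-Tg pools (log2 fold change 1.88 ± 0.33 SE, FDR = 0.00237). *Ltbp2*, which encodes a microfibril protein of the latent TGF-β-binding family, stood at 61.5, 25.4, and 64.3 and 854, 2018, and 1586 CPM, a 29.5-fold difference of means (log2 fold change 4.84 ± 0.38 SE, FDR = 1.52e-05). *Acta2* stood at 82.2, 27.9, and 143 and 1952, 1158, and 1081 CPM (log2 fold change 4.03 ± 0.43 SE, FDR = 1.04e-04), beside the smooth muscle sums given above. In mural-gene-negative cells the log2 fold change was 6.39 for *Ltbp2* (FDR = 9.62e-07) and 3.06 for *Acta2* (FDR = 0.00143).

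Of 26 genes of collagens and interstitial matrix, 5 rose, 2 fell (*Fbln1* and *Ogn*), and 19 were not called, while 6 of 24 were called higher in mural-gene-negative cells. The 2 that fell are near the share of all genes called lower (6.77%). *Col5a2*, a chain of type V collagen, was at 241, 187, and 213 CPM in the WT pools and 553, 1066, and 524 CPM in the TNF-Tg pools (log2 fold change 1.72 ± 0.25 SE, FDR = 6.98e-04). *Mfap5*, a microfibril gene, was at 373, 286, and 227 and 755, 904, and 756 CPM (log2 fold change 1.43 ± 0.19 SE, FDR = 4.05e-04), and the proteoglycan gene *Bgn* at 2012, 1873, and 1721 and 2745, 4199, and 3630.2 CPM (log2 fold change 0.91 ± 0.17 SE, FDR = 0.00297). TNF-Tg libraries were above WT libraries for these 3 genes. *Fn1* and *Dcn* were also called higher, with overlap of libraries for *Dcn*. The count of this list varied from 3 genes called higher without the WT or the TNF-Tg library of 14 weeks to 9 without the TNF-Tg library of 20 weeks, and from 1 to 5 called lower, the latter without the TNF-Tg library of 8 weeks. *Fn1* and *Fbln1* lost their calls in 5 of these 6 fits (highest FDR = 0.197 and 0.162) and *Dcn* in 4 (highest FDR = 0.17). Of 12 basement membrane genes, 4 rose (*Col4a5*, *Lamb2*, *Hspg2*, and *Col18a1*) and none fell. The perlecan gene *Hspg2* rose from 104, 88.9, and 74.1 to 170.4, 206, and 167 CPM (log2 fold change 1.002 ± 0.17 SE, FDR = 0.00192). The other 3 rested on single libraries (highest FDR = 0.0539 for *Col4a5*, 0.19 for *Lamb2*, and 0.182 for *Col18a1*), *Lamb2* had an FDR of 0.0511 with age as a block, and 1 gene was called higher without the TNF-Tg library of 14 weeks, 2 without the WT library of 14 or of 20 weeks, and 4 lower without the TNF-Tg library of 8 weeks. In mural-gene-negative cells 1 of 12 was called higher and 1 lower.

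Of 17 genes of matrix proteases and their inhibitors, 6 rose and 2 fell (*Timp3* and *Adamts9*, with an FDR of 0.0618 without the WT library of 14 weeks and 0.0629 without the TNF-Tg library of 14 weeks), with 4 higher and 1 lower of 15 in mural-gene-negative cells. *Mmp3*, the stromelysin gene, was at 120.1, 217, and 76.2 CPM in the WT pools and 459, 698, and 778 CPM in the TNF-Tg pools (log2 fold change 2.23 ± 0.33 SE, FDR = 6.90e-04). The metalloproteinase inhibitor gene *Timp1* was at 33.7, 34.3, and 25.1 and 54.7, 129, and 179.7 CPM (log2 fold change 1.97 ± 0.35 SE, FDR = 0.00242), and *Ctsk*, a collagen-degrading cathepsin gene, at 15.4, 10.2, and 9.80 and 25.2, 94.8, and 103 CPM (log2 fold change 2.60 ± 0.44 SE, FDR = 0.00181). A protease and a protease inhibitor thus rose in the same libraries, with no overlap between genotypes. *Serpina3g*, a member of a family of near-identical serpins, rose from 8.56 ± 5.42 to 62.8 ± 42.4 CPM (FDR = 0.00337) and is uncertain where reads are shared.

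Genes of the IGF axis included the most abundant transcript among those named that rose. *Igfbp7*, an IGF-binding protein gene, was at 1974, 1602, and 1716 CPM in the WT pools and 5429, 9415, and 8229 CPM in the TNF-Tg pools (log2 fold change 2.11 ± 0.20 SE, FDR = 4.31e-05), and mural-gene-negative cells had a log2 fold change of 2.31 (FDR = 2.01e-06). *Igfbp3* was at 873, 673, and 930.1 and 252, 381, and 245 CPM (log2 fold change -1.50 ± 0.20 SE, FDR = 3.54e-04). Of 9 genes of this axis, 4 rose (*Igf1*, *Igfbp4*, *Igfbp5*, and *Igfbp7*) and 2 fell (*Igfbp3* and *Igfbp6*), with a highest FDR over the fits without 1 library of 0.103 for *Igfbp4* and 0.14 for *Igfbp6*. The IGF axis had 3 higher and 1 lower of 8 called in mural-gene-negative cells. All 4 PDGF genes tested were called, in both sets of cells. *Pdgfra*, the PDGF receptor of alveolar fibroblasts, was at 1410.5, 1873, and 1388 CPM in the WT pools and 661, 543, and 628 CPM in the TNF-Tg pools (log2 fold change -1.36 ± 0.16 SE, FDR = 1.81e-04). *Pdgfrb*, the receptor typical of mural cells, was at 70.4, 26.7, and 55.5 and 366, 157, and 128 CPM (log2 fold change 1.99 ± 0.39 SE, FDR = 0.00463). The 2 receptor genes went in opposite directions, and both were called in mural-gene-negative cells (log2 fold change -0.85, FDR = 0.0325, and 2.22, FDR = 3.08e-04). The rise of *Pdgfrb* depended on the marker limit, since its log2 fold change was 0.14 (FDR = 0.857) when unthinned cells needed only 3 markers.

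Of 25 mesenchymal transcription factor genes, 4 rose (*Gata6*, *Prrx1*, *Runx1*, and *Mef2c*) and 7 fell (*Tbx2*, *Tbx4*, *Meox2*, *Klf9*, *Nr2f2*, and *Cebpd* among them). *Prrx1*, a homeobox gene of connective tissue, stood at 71.6, 72.4, and 53.4 CPM in the WT pools and 185, 196, and 188 CPM in the TNF-Tg pools (log2 fold change 1.51 ± 0.16 SE, FDR = 1.04e-04). *Gata6* stood at 4.14, 14.0, and 5.45 and 63.1, 50.7, and 87.5 CPM (log2 fold change 3.24 ± 0.39 SE, FDR = 2.03e-04), and *Mef2c* at 49.1, 49.5, and 50.1 and 124, 131, and 129.7 CPM (log2 fold change 1.36 ± 0.15 SE, FDR = 1.32e-04), both within or below their endothelial ranges of 35.8 to 112 CPM and 137 to 259 CPM. Mural-gene-negative cells had 3 called higher and 2 lower of 23. The genotypes overlapped for *Runx1*, which had an FDR of 0.0541 without the TNF-Tg library of 20 weeks. The count of those that fell was 3 without the WT library of 8 or of 14 weeks, 4 without the WT or the TNF-Tg library of 20 weeks, and 2 without the TNF-Tg library of 14 weeks, with *Tbx4*, *Klf9*, *Nr2f2*, and *Cebpd* among those that lost their calls (highest FDR = 0.195, 0.0622, 0.152, and 0.0802). *Tbx2* and *Tbx4* are T-box factors of lung mesenchyme. Of 3 scavenger receptor genes, *Colec12* fell from 678, 757, and 835 to 370.2, 319, and 355 CPM (log2 fold change -1.13 ± 0.14 SE, FDR = 2.82e-04). Of 5 genes of IL-4 and IL-13 signaling, the receptor gene *Il13ra1* rose from 11.8, 7.62, and 22.9 to 48.4, 34.3, and 68.8 CPM (log2 fold change 1.84 ± 0.37 SE, FDR = 0.00586). The cyclin genes *Ccnd1* and *Ccnd2* rose among 5 cell cycle genes tested, the latter with an FDR of 0.165 without the WT library of 20 weeks. *Ccnd1* was at 6.51, 6.35, and 7.62 CPM in the WT pools and 71.5, 131, and 102 CPM in the TNF-Tg pools (FDR = 1.51e-05), below its endothelial level of 212 to 676 CPM. None of 3 cell cycle genes tested in mural-gene-negative cells was called, *Ccnd1* could not be tested there, and *Ccnd2* had a log2 fold change of 0.37 (FDR = 0.643). Of 14 genes of dissociation stress, none rose and 1 fell (*Jund*, 760.2 ± 113 to 423 ± 38.1 CPM, FDR = 0.0028), but 10 were called lower without the TNF-Tg library of 8 weeks. With all libraries, the 1 that fell is near the share of all genes called lower (6.77%). Mural-gene-negative calls were 1 higher and 1 lower of 13 for dissociation stress, 0 higher and 1 lower of 3 for scavenger receptors, and 2 higher and 0 lower of 5 for IL-4 and IL-13 signaling.

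**Figure D4:**
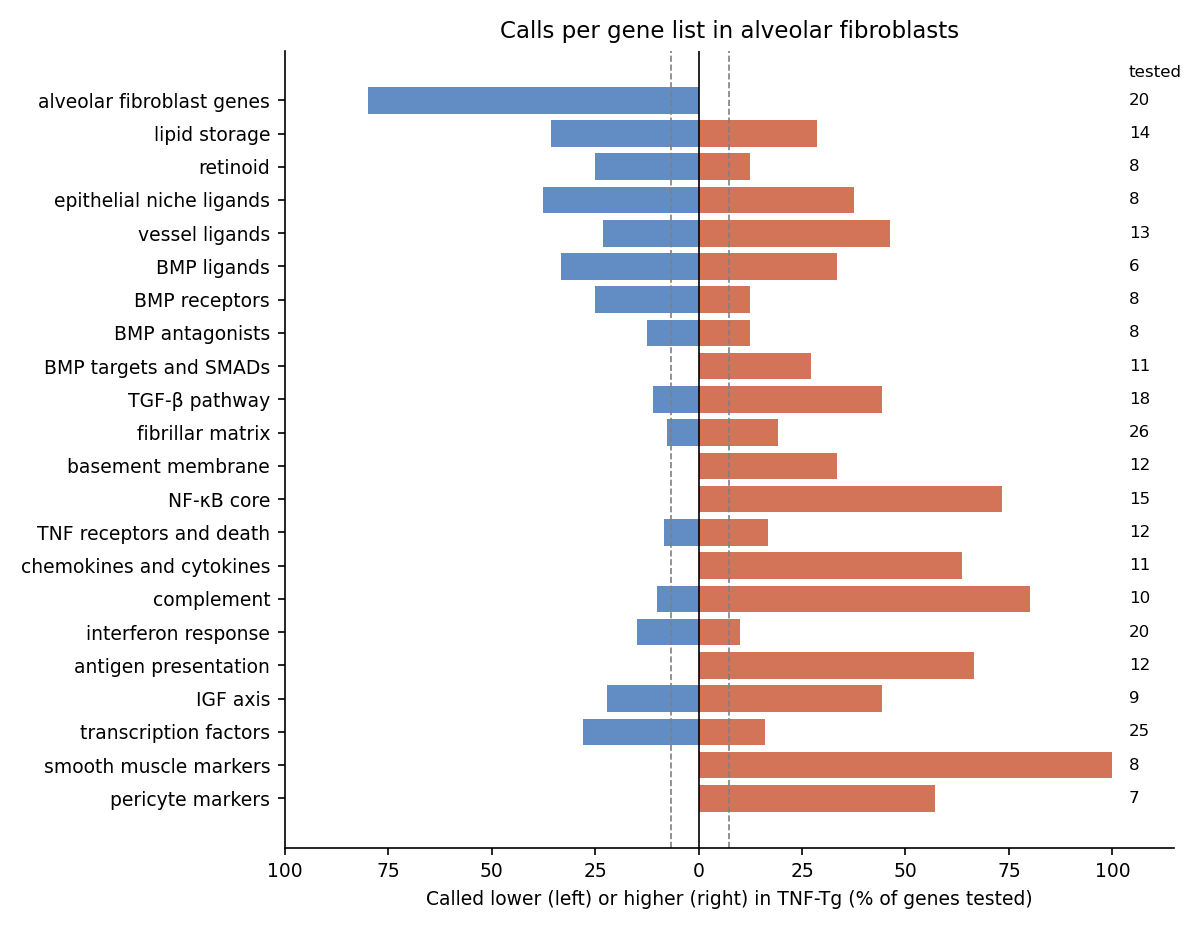
Genes called higher and lower in TNF-Tg alveolar fibroblasts in each gene list shown, as a percentage of those tested by edgeR and apart from the rule genes. The NF-κB, chemokine, complement, and antigen-presentation lists have most or all of their calls on the higher side, and the list of alveolar fibroblast genes has calls on the lower side only.

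Of 13 tested genes that the study names for these cells or for the BMP axis, 6 rose (*Hp*, *Ltbp2*, *Saa3*, *Bmp2*, *Bmpr1a*, and *Igfbp7*) and 5 fell (*Inmt*, *Pcolce2*, *Mettl7a1*, *Bmp4*, and *Plin2*). The study chose them on these libraries, so their directions are not independent evidence. Mural-gene-negative cells had 5 higher and 3 lower of 12. *Mettl7a1*, a methyltransferase-like gene of lipid droplets, was at 1567, 1917, and 1898 CPM in the WT pools and 387, 219, and 328 CPM in the TNF-Tg pools (log2 fold change -2.54 ± 0.20 SE, FDR = 1.72e-05). *Plin2*, which coats lipid droplets, was at 133, 170.2, and 123 and 77.8, 57.2, and 102 CPM (log2 fold change -0.84 ± 0.22 SE, FDR = 0.0215), without overlap, but its FDR was 0.0598, 0.0906, and 0.103 without the WT library of 8 weeks, the WT library of 14 weeks, or the TNF-Tg library of 14 weeks. *Maf*, a transcription factor gene, was at 214, 231, and 188 and 118, 126, and 202 CPM, which overlapped (FDR = 0.142). *Adh7*, *Pi16*, and *Twist1* were too low to be tested.

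Markers of other cell types were counted in the same way. All 8 smooth muscle genes were called higher (median log2 fold change 3.47), and 4 of 7 pericyte genes, of which 2 were called without the WT library of 8 or of 14 weeks. In mural-gene-negative cells, 1 of 3 smooth muscle genes tested and 1 of 2 pericyte genes tested were called higher, and 0 were called lower. *Myh11* among the smooth muscle genes had an FDR of 0.0752 without the WT library of 8 weeks. *Myl9*, a myosin light chain gene of smooth muscle, was at 33.1, 16.5, and 66.4 CPM in the WT pools and 703, 433, and 292 CPM in the TNF-Tg pools (log2 fold change 3.60 ± 0.41 SE, FDR = 1.35e-04), and *Kcnk3*, a potassium channel gene of pericytes, at 8.28, 3.81, and 8.71 and 210.4, 54.0, and 21.9 CPM (log2 fold change 3.59 ± 0.73 SE, FDR = 0.00601). The TNF-Tg library of 8 weeks was the highest for both. Of 8 further myofibroblast genes, 7 rose and 1 fell, and 4 of 6 were called higher in mural-gene-negative cells. *Enpp2*, the autotaxin gene, was at 41.4, 40.7, and 51.2 CPM in the WT pools and 290.3, 903, and 622 CPM in the TNF-Tg pools (log2 fold change 3.76 ± 0.35 SE, FDR = 4.67e-05), and in mural-gene-negative cells its log2 fold change was 4.57 (FDR = 9.62e-07).

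Of 9 further adventitial fibroblast genes, 3 rose (*Dcn*, *Serpinf1*, and *Mfap5*) and 3 fell (*Cd34*, *Gsn*, and *Igfbp6*), with a highest FDR over the fits without 1 library of 0.17 for *Dcn* and 0.14 for *Igfbp6*, and with 2 higher and 1 lower of 7 in mural-gene-negative cells. *Gsn*, the gelsolin gene, was at 12852, 14263, and 13500.0 CPM in the WT pools and 4161, 2494, and 2544 CPM in the TNF-Tg pools (log2 fold change -2.16 ± 0.19 SE, FDR = 2.83e-05), and *Serpinf1* was at 7.69, 6.35, and 5.45 and 40.0, 57.2, and 53.1 CPM (log2 fold change 2.87 ± 0.30 SE, FDR = 8.36e-05). Further endothelial genes summed to 135, 314, and 100.2 CPM in the WT pools and 191, 196, and 103 CPM in TNF-Tg, with 0 of 4 tested genes called in either direction. The leukocyte genes *Ptprc*, *Laptm5*, and *Cd3e* were at 0 UMIs in these cells of every library, and *Lyz2* was called higher (but FDR = 0.107 without the TNF-Tg library of 14 weeks), with an immune list sum of 12.4, 0, and 1.09 CPM in the WT pools and 44.2, 98.1, and 45.3 CPM in TNF-Tg. A list of 3 hemoglobin and 2 platelet genes summed to 9143, 54.6, and 10.9 CPM for WT and 196, 16.4, and 26.6 CPM in TNF-Tg, so that the WT library of 8 weeks stood apart. The part of these other cell types in the gene changes was not tested beyond the mural-gene-negative counts.

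**Figure D5:**
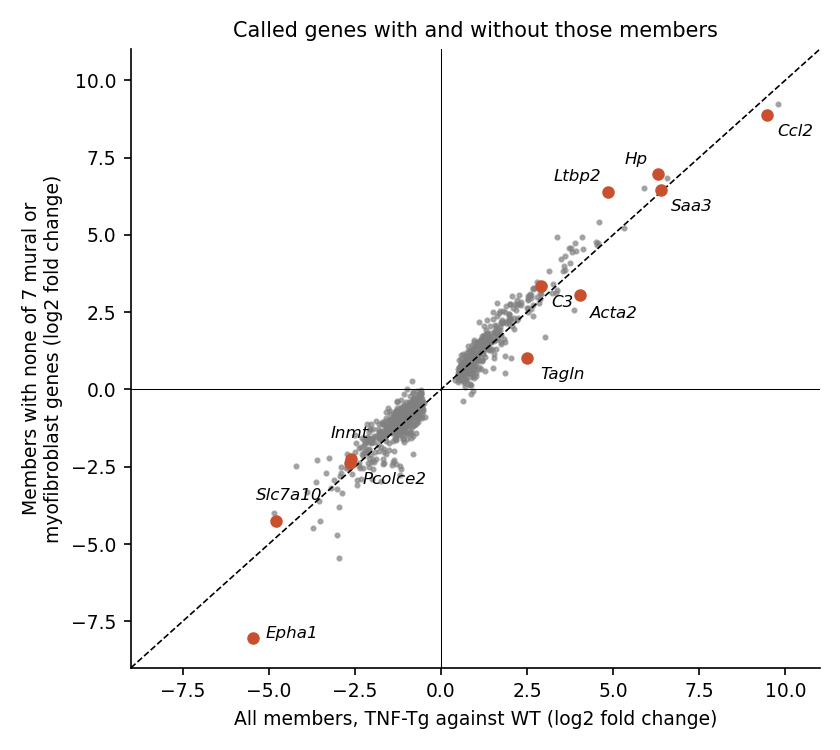
Log2 fold change (TNF-Tg over WT) of the genes called in all alveolar fibroblasts on the horizontal axis and in mural-gene-negative cells on the vertical axis, with 1 point per gene. Of the 1115 genes called in all cells, 863 were tested in both and 858 had the same sign. The mural-gene-negative cells are part of all cells, so the axes are not independent.

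The genotype difference in alveolar fibroblasts was compared with that in the adventitial fibroblasts and the myofibroblasts of the same libraries, each chosen by detection of at least 2 of the genes that the rule limits and at most 3 alveolar markers. Of 9525 genes, 587 (6.16%) differed from adventitial fibroblasts by an interaction term in edgeR, 357 with a more positive and 230 with a more negative difference in alveolar fibroblasts. Of 10150 genes, 724 (7.13%) differed from myofibroblasts, 417 more positive and 307 more negative. Of the 1115 genes called in alveolar fibroblasts, 460 differed from adventitial fibroblasts and 344 from myofibroblasts. The counts depend on single libraries. Leaving out the WT library of 8, 14, or 20 weeks gave 314, 355, and 329 genes that differed from adventitial fibroblasts. For myofibroblasts, leaving out the WT library of 8 or 20 weeks gave 348 and 392 genes, and leaving out the TNF-Tg library of 8, 14, or 20 weeks gave 1128, 456, and 438.

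*Slc7a10* had the most negative term against adventitial fibroblasts apart from hemoglobin genes. It stood at 2.94, 1.15, and 0 CPM in adventitial fibroblasts of WT and 4.84, 8.56, and 3.91 CPM in those of TNF-Tg (interaction -6.69 ± 0.80 log2 units, FDR = 2.71e-04). *Ccl2* was read at 4.89, 429.9, and 1580.0 CPM in adventitial fibroblasts of WT and 49.0, 976, and 393 CPM in those of TNF-Tg (FDR = 1.46e-04 for the interaction), so that the WT adventitial libraries of 14 and 20 weeks already held *Ccl2* while WT alveolar fibroblasts had 2 UMIs in all. In myofibroblasts, *Ccl7* stood at 0, 1.36, and 125 CPM for WT and 204, 115, and 297 CPM in TNF-Tg (FDR = 0.0369 for the interaction). For *Saa3*, adventitial fibroblasts had 0.979, 0, and 3.92 CPM for WT and 14.5, 50.6, and 1419 CPM in TNF-Tg, and the interaction was -0.06 ± 1.06 log2 units (FDR = 0.996). *Inmt* stood at 773, 1311, and 829 CPM in adventitial fibroblasts of WT and 225, 250.1, and 349 CPM in those of TNF-Tg, with an interaction of -0.93 ± 0.35 (FDR = 0.162).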

How the data were processed

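The authors aligned 10x 3′ reads to mm10 (GRCm38) with Cell Ranger, version 5.0.0 for the libraries of 8 weeks and 6.0.1 for those of 14 and 20 weeks per the file headers, and deposited UMI counts per gene and barcode without normalization. The counts were summed over the chosen barcodes of each library. Members and gene lists were chosen with earlier results of these data known. Sums were compared in edgeR 4.0.16 (R 4.3.3; filterByExpr, TMM, quasi-likelihood test, Benjamini-Hochberg adjustment over all genes tested). Age was not a term of the model. Per the labels, the WT mice were littermate controls at each age, so libraries of 1 age are pairs, and an age block was the alternative. The deviations of the paired libraries from the genotype means correlated at 0.175, 0.0879, and -0.0131 at 8, 14, and 20 weeks. The interaction models had the library as a block. The study compared cells, which were not used as replicates here. Shares were compared by exact permutation over libraries (SciPy 1.17.1). Doublets were marked with Scrublet in scanpy 1.11.5 and left out only as an alternative; 6, 2, and 5 of the WT and 4, 0, and 1 of the TNF-Tg alveolar fibroblasts were marked. On simulated counts for this comparison (7575 genes), edgeR found 72% of 2-fold and 100% of 4-fold changes. The interaction models found 29% and 96% of such differences at the depth of the adventitial sums (8907 genes) and 26% and 97% at that of the myofibroblast sums (9602 genes). False calls numbered 8, 6, and 10. The 200 changed genes had at least 50 CPM in WT, and all genes shared a common dispersion of 0.0362. The other class was drawn from the WT alveolar profile with that dispersion, not from its own profile or spread. The percentages found therefore do not apply to lower or more variable genes, and the power against the real adventitial fibroblasts and myofibroblasts was not simulated. Genes given with values are, per list, the up to 4 called genes of largest change with at least 50 CPM, the 10 genes that rose and the 10 that fell most, the genes the study names, and the 5 largest interaction terms in each direction. *Serpina3g* and the *H2* genes have near-identical relatives. Positions are from GENCODE vM21. Some genes counted in the lists are not reported here by name.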

Additional observations from a re-analysis of the deposited data

Results flagged for a closer look

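A difference between cell types in the size of the TNF-Tg against WT change, tested by the interaction term in edgeR, brought out 20 values, the 5 largest in each direction against adventitial fibroblasts and against myofibroblasts. A value is the log2 change in alveolar fibroblasts minus that in the other class. Where all libraries of a group were at 0 or held 1 to 3 UMIs, the fitted size depends on the prior count of the model and is no bound.

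Against adventitial fibroblasts, the chemokine genes *Ccl2* and *Ccl7* had terms of 10.39 and 8.86. The matrix gene *Cilp* had a term of 7.62, with mean levels, WT first, of 0.592 and 185 CPM in alveolar and of 412 and 376 CPM in adventitial fibroblasts. *Bpifa2* had a term of 7.24 (5.86 and 118 CPM against 1.20 and 0.124 CPM), and the phospholipase gene *Plce1* a term of 6.83 (0 and 9.13 CPM against 56.0 and 56.7 CPM), which was 5.54 (FDR = 0.184) in mural-gene-negative cells. *Slc7a10* had a term of -6.69. The hemoglobin genes *Hbb-bt*, *Hba-a1*, *Hba-a2*, and *Hbb-bs* had terms of -11.53, -10.07, -9.57, and -9.02. In WT alveolar fibroblasts *Hbb-bs* was at 4784, 24.1, and 7.62 CPM at 8, 14, and 20 weeks, so 1 library carried its WT level.

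Against myofibroblasts, *Ecrg4* and *Ccl7* had terms of 7.67 and 7.63. The proteoglycan gene *Lum* had a term of 7.02, with 2.37 and 43.7 CPM in WT and TNF-Tg alveolar fibroblasts and 809 and 85.3 CPM in myofibroblasts. The tendon transcription factor gene *Scx* had a term of 6.11 (0 and 2.11 CPM against 198 and 73.2 CPM), which was 1.54 (FDR = 1) in mural-gene-negative cells. *Fxyd6* had a term of 5.95 (18.4 and 109.9 CPM against 251 and 24.7 CPM). *Colq*, which anchors acetylcholinesterase, had a term of -6.80 (116 and 26.8 CPM against 0 and 2.42 CPM). *Slc36a2*, an amino acid transporter gene, had a term of -6.27 (200.4 and 136 CPM against 0 and 4.68 CPM), the sulfotransferase gene *Chst3* one of -5.99 (85.9 and 11.9 CPM against 1.86 and 14.1 CPM), *Amph* one of -5.40 (59.4 and 14.7 CPM against 0.243 and 3.63 CPM), and *Hbb-bt* one of -4.91.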

How the results depend on the processing

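The 1115 calls in alveolar fibroblasts became 1801 without a filter on low counts, 615 with no endothelial gene allowed, 552 in mural-gene-negative cells, 125 when cells were thinned to 2000 UMIs before the rule was applied (3 WT sums against the TNF-Tg sum of 8 weeks, as the others held under 10 cells), and 330 when thinned cells needed 3 markers. DESeq2 gave 839, and leaving out 1 library gave 759 to 1468. The 587 genes that differed from adventitial fibroblasts became 920 without the filter, 25 and 152 with thinned cells and 4 or 3 markers, and 314 to 872 without 1 library. The 724 that differed from myofibroblasts became 1177, 28, and 128 in the same order, and 348 to 1128 without 1 library. With thinned cells and 4 markers the counts of 25 and 28 also rest on 1 TNF-Tg sum of alveolar fibroblasts, which is assumed to vary like the other sums. Thinned cells and narrower rules leave fewer cells and fewer genes to test, and no other cause was tested. The share among *Col1a2* barcodes differed by -17.72 points, by -24.12 and -26.23 points with thinned cells and 4 or 3 markers, and by -26.21 points when the adventitial limit used *Pi16* and *Scara5* only. Genotypes did not overlap in any of these. Thinned cells with 3 markers, mural-gene-negative cells, and the last limit were chosen after seeing the data.

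Of 2284 values of 120 called genes over the alternatives, 2060 kept direction and call, 213 lost the call, and 11 changed sign. Of these 11, 8 come from thinned cells with 4 markers, where 1 TNF-Tg library stands for its genotype and none of the 8 was called. That fit gave 0.20 for *Adh1*, 0.12 for *Bmp5*, -0.57 for *Col18a1*, 0.47 for *Tradd*, -1.54 for *Igfbp5*, 0.15 for *Cd34*, -1.14 for *Tagln*, and 0.18 for *Slc36a2*. *Col18a1* was -0.37 in mural-gene-negative cells, *Pdgfrb* -0.32 in thinned cells with 3 markers, and *Notch3* -0.042 with at least 3 markers in unthinned cells. For 53 of the 120 genes no alternative changed the call. With at least 3 markers in unthinned cells, 104 of the 120 kept direction and call and 15 lost the call, *Wnt5a* and *Pdgfrb* among them.

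With age as a replicate block, 1150 genes were called and *Lamb2* alone of the 120 genes lost its call. The sums of the 43 mural-gene-negative TNF-Tg cells have the lowest depth, and a gene that missed the call there is not shown to be equal.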

Other observations

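The adventitial limit of the rule took out more barcodes than the myofibroblast and endothelial limits did in 5 of the 6 libraries. With at least 1 *Col1a2* UMI and at least 4 of the 6 markers there were 404, 227, and 206 barcodes in WT and 78, 70, and 69 in TNF-Tg at 8, 14, and 20 weeks. Of these, 125, 89, and 65 in WT and 28, 15, and 16 in TNF-Tg held more than 1 of *Pi16*, *Scara5*, *Clec3b*, and *Htra3*. *Clec3b*, the tetranectin gene, was detected in 351, 185, and 178 of the WT barcodes and in 47, 19, and 20 of the TNF-Tg barcodes.

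In adventitial fibroblasts tested on their own, 4 genes were called higher and 24 lower in TNF-Tg by edgeR, and 843 had an unadjusted p under 0.05. In myofibroblasts 804 were called higher and 706 lower. These counts come from sums of different depth and are not a test of the difference between classes.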
